A study of Mus musculus with 2 samples.

Results

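The genes described here store, move and sense iron, or guard membranes against the iron-dependent form of cell death called ferroptosis. They were chosen by symbol, as 10 of the 31053 genes counted in nuclei of mouse entorhinal cortex, and all 10 are in the count tables. Ferritin, built from heavy chains (Fth1) and light chains (Ftl1), stores iron inside the cell. Transferrin (Trf) carries iron to its receptor (Tfrc), Slc11a2 moves it across membranes into the cytosol, and Slc40a1, called ferroportin, is the iron exporter. Hmox1 frees iron from heme, Gpx4 reduces lipid peroxides and so holds ferroptosis back, and Aco1 and Ireb2 encode the iron regulatory proteins, which bind iron-responsive elements in the messengers of several of the others. In the brain, oligodendrocytes are known for a high iron content and microglia for taking up and storing iron.

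The study gave a fatty acid-leucine conjugate to mice that deposit amyloid. Both groups were male APP/PS1 mice, which carry transgenes for amyloid precursor protein and presenilin, and both drank alkaline water from 15 months of age to 18 months, when entorhinal cortex was taken. The OLE group received C18:1-Leu (N-oleoyl-leucine) at 25 mg/kg/day and the vehicle group received DMSO. Tissue of 5 mice was pooled into 1 library per group, so there is no replicate, no difference was tested, and the values of both libraries are given side by side. Neither of the 2 libraries comes from mice without the transgenes.

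The vehicle library held 6745 barcodes and 70845739 unique molecular identifiers (UMIs, each standing for a captured RNA molecule), with a median of 3989 UMIs per barcode. The OLE library held 6173 barcodes and 69485537 UMIs, with a median of 6392. The libraries shared 14 barcode sequences. After removal of likely doublets, 6414 vehicle and 5884 OLE barcodes were clustered without the 10 genes and named from marker genes, each name standing for a cluster that resembles that cell type. The 7 named types with at least 50 nuclei were glutamatergic-like (1837 vehicle and 1814 OLE nuclei), GABAergic-like (325 and 354), oligodendrocyte-like (588 and 528), oligodendrocyte precursor-like (OPC, 101 and 84), astrocyte-like (121 and 136), microglia-like (338 and 271) and vascular leptomeningeal-like (88 and 85). Levels are UMIs of a gene per 1000000 UMIs summed over a cell type and library. All intervals are 95% intervals and cover counting error only.

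A cluster in which markers of several classes were raised stayed unnamed and is called the low-UMI cluster, after its vehicle median. It held 38.6% of the vehicle and 34.4% of the OLE barcodes, with medians of 2359 and 4724 UMIs. Its OLE barcodes were deeper than OLE oligodendrocytes and microglia, so the name does not describe them. A further unnamed cluster, led by mitochondrial genes, held 5.86% and 7.56% and is called the mitochondria-rich cluster. RNA that leaks into droplets gives some UMIs of every abundant gene to every type. The 12 oligodendrocyte markers together, all of them detected, stood at 13951 UMIs per 1000000 in vehicle oligodendrocytes and still at 159 in vehicle glutamatergic nuclei. In the OLE library the same sums were 16709 and 156. The most abundant of them in glutamatergic nuclei was Mbp, which encodes a myelin protein.

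Counted over all barcodes and divided by exon length, Fth1 was the most abundant of the 10, at 40.4 UMIs per 1000000 and kilobase of exon. On the same scale Ftl1 stood at 22.2, Gpx4 at 16.7 and Ireb2 at 7.49. Slc40a1 at 0.276 and Hmox1 at 0.346 were low on it. The division by exon length turns some ranks. By UMIs alone Ireb2 (9957) came before Ftl1 (4176) and Gpx4 (4037), and Hmox1 (85) was rarer than Slc40a1 (349). Transferrin was close to uncounted, with 1 UMI in the vehicle library and 0 after OLE. Trf spans 26444 bases on chromosome 9 of GRCm38 (103204001 to 103230444, minus strand), and all but 137 of them lie inside the annotated gene Gm20425 on the same strand. Gm20425 itself had 1 UMI. Of 573 protein-coding genes that lie to at least 99% inside another counted gene of their strand, 93.4% had fewer than 10 UMIs, against 21.5% of the 20450 that share no base. The level of Trf in these tissues is therefore not given by these counts, and no comparison of it was made.

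Near-identical copies can take or lend UMIs. Ftl1-ps1, a copy of Ftl1 with a gene entry of its own, had 160 vehicle and 129 OLE UMIs beside 1850 and 2326 of Ftl1. Fthl17a, a relative of Fth1, had 23 vehicle and 17 OLE UMIs in the retained barcodes beside 7357 and 10612 of Fth1. Slc11a2 overlaps Gm5475 on the opposite strand.

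Among the 7 named types, ferritin heavy chain was highest in oligodendrocytes in both libraries. Fth1 stood there at 404 UMIs per 1000000 (interval 378 to 432) in the vehicle library and at 572 (537 to 608) in the OLE library. Its lowest level was in GABAergic nuclei, at 37.7 (33.3 to 42.5) in the vehicle and 64.7 (58.7 to 71.1) in the OLE library. Oligodendrocytes stood clear of every other named type, and both neuron classes were at the bottom. Between them lay microglia at 219, astrocytes at 219 and vascular leptomeningeal nuclei at 208 in the vehicle library. After OLE these were 277, 156 and 269, with astrocytes clear below the other types of this middle group. OPC were lower than oligodendrocytes, at 113 in the vehicle and 95.5 in the OLE library. Oligodendrocytes exceeded glutamatergic nuclei 9.52-fold (8.77 to 10.3) in the vehicle and 7.84-fold (7.29 to 8.42) in the OLE library. When nuclei were clustered on log-normalized counts, astrocytes led the 7 named types in the vehicle library, at 426 beside 400 in oligodendrocytes. That rests on 1 nucleus, which held 161 of the 331 Fth1 UMIs of those astrocytes. Without the nucleus richest in the gene, an alternative chosen after seeing the data, their level was 223.

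Ferritin light chain had another order. Among the 7 named types Ftl1 was highest in vascular leptomeningeal nuclei, at 158 UMIs per 1000000 (130 to 190) in the vehicle and 174 (144 to 207) in the OLE library. Single nuclei held 38 of the 111 vehicle and 40 of the 122 OLE UMIs, and without them the levels were 113 and 126. Microglia came next, at 86.3 (68.0 to 108) and 102 (79.9 to 128). Glutamatergic nuclei were lowest, at 10.1 (9.19 to 11.1) and 15.2 (14.0 to 16.5). The chains thus parted in oligodendrocytes, where Fth1 led and Ftl1 stood at 33.9 and 43.4. For every Ftl1 UMI there were 11.9 Fth1 UMIs (9.38 to 15.3) in vehicle oligodendrocytes and 13.2 (10.4 to 16.8) in OLE oligodendrocytes. The same ratio of counts was 2.54 (1.94 to 3.36) and 2.72 (2.07 to 3.60) in microglia. It was lowest in vascular leptomeningeal nuclei, at 1.32 (1.02 to 1.70) and 1.55 (1.23 to 1.96). The vascular leptomeningeal nuclei also carried the most mitochondrial UMIs of the named types, 6.99% and 6.63%. When barcodes with at least 5% mitochondrial UMIs were left out, microglia held the highest Ftl1 level in both libraries.

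Among the named types, the transferrin receptor stood clear of the rest only in GABAergic nuclei. Tfrc was highest in GABAergic nuclei, at 41.9 UMIs per 1000000 (37.3 to 47.0) in the vehicle and 49.8 (44.6 to 55.6) in the OLE library. After thinning to 1000 UMIs the highest vehicle type was OPC instead. Glutamatergic nuclei followed at 31.2 (29.5 to 32.9) and 35.1 (33.3 to 37.0). Their intervals overlapped those of the next type, which was OPC at 23.4 (13.9 to 37.0) in the vehicle library and astrocytes at 28.6 (18.5 to 42.2) after OLE. Oligodendrocytes had 15.6 (10.8 to 21.8) and 24.8 (18.0 to 33.3), and the intervals of the non-neuronal types overlapped from each neighbour to the next. Slc11a2, the importer, was lowest in OPC, whose intervals (3.66 to 18.7 and 3.45 to 20.4) lay below those of both neuron classes. It ranged in the vehicle library from 9.09 in OPC to 24.7 in GABAergic nuclei and in the OLE library from 9.39 in OPC to 30.3 in microglia, with each neighbour in the order overlapping the next. The unnamed low-UMI cluster stood above all named types for both genes, with Tfrc at 79.7 and 68.5 and Slc11a2 at 48.9 and 49.2.

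Among the 7 named types, ferroportin was highest in microglia. Slc40a1 stood in microglia at 47.7 UMIs per 1000000 (34.4 to 64.5) in the vehicle and 39.9 (26.7 to 57.3) in the OLE library. In glutamatergic nuclei it stood at 0.939 and 1.11. Those levels rest on 42 and 29 UMIs in microglia, and on 40 and 44 in the far deeper glutamatergic nuclei. In vehicle OPC and vehicle vascular leptomeningeal nuclei 0 UMIs were counted, with intervals that reach up to 4.79 and 5.25 per 1000000.

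No cluster was named endothelial in the main clustering, although brain endothelium is a site of transferrin receptor and ferroportin expression. Clustering on log-normalized counts gave an endothelial-like cluster of 53 nuclei (16 vehicle and 37 OLE). In it Tfrc stood at 289 UMIs per 1000000 (207 to 394) in the vehicle and 271 (200 to 360) in the OLE library. Slc40a1 stood at 152 (93.9 to 232) and 215 (152 to 295), above its level in the microglia of the main clustering. Keeping the 10 genes among the clustering genes gave nearly the same cluster, of 49 nuclei. At resolution 0.8 an endothelial-like cluster of 399 shallower barcodes appeared instead (166 vehicle and 233 OLE). There Tfrc stood at 135 (101 to 177) and 133 (105 to 168), and Slc40a1 at 53.6 (33.1 to 81.9) and 69.5 (49.2 to 95.3). Tfrc was thus higher than in any named type of the main clustering in each of these clusters, while its level depended on where the cluster was drawn. Fth1, Ftl1 and Gpx4 were above every named type too. In the cluster of 53 nuclei Fth1 stood at 687 (555 to 839) and 1289 (1127 to 1468), Ftl1 at 369 and 407, and Gpx4 at 130 and 198. In that of 399 barcodes Fth1 stood at 1028 and 1267, Ftl1 at 314 and 331, and Gpx4 at 117 and 177. The 12 oligodendrocyte markers summed in the cluster of 53 nuclei to 578 and 1216, and in that of 399 barcodes to 1693 and 1455. Their part in these Fth1 levels was not tested. The orders given here therefore hold for the 7 named types only.

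Gpx4, the peroxidase that holds ferroptosis back, was highest in oligodendrocytes of the vehicle library, at 72.5 UMIs per 1000000 (61.6 to 84.7), and in vascular leptomeningeal nuclei of the OLE library, at 92.6 (71.5 to 118). Oligodendrocytes were highest in the OLE library too with no barcode removed, with the mean of shares per nucleus, without mitochondria-rich barcodes and after thinning, so a difference in the leading type is not read from these levels. Glutamatergic nuclei had 17.4 (16.1 to 18.7) and 20.3 (18.9 to 21.7). The order of the heme-degrading Hmox1 rests on few UMIs, with no more than 15 UMIs in any named type and library. Its microglial counts were 2 in the vehicle and 6 in the OLE library.

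Ireb2, an iron regulatory protein, differed little between types, with 2.17-fold between the highest and lowest in the vehicle and 1.98-fold in the OLE library. It was highest in microglia, at 147 UMIs per 1000000 (122 to 174) in the vehicle and 121 (97.1 to 149) in the OLE library. After OLE the microglial interval overlapped that of vascular leptomeningeal nuclei, at 95.5 (74.0 to 121). Glutamatergic nuclei had 67.6 (65.1 to 70.1) and 65.9 (63.4 to 68.5). Aco1, the other regulator, which is aconitase when it holds an iron-sulfur cluster, was highest in astrocytes, at 54.0 (38.9 to 73.0) and 49.2 (35.6 to 66.3). These intervals overlapped those of OPC, at 32.5 (21.0 to 47.9) and 31.3 (19.1 to 48.3), so astrocytes did not stand clear. For 6 of the 9 genes other than Trf, the rare Hmox1 included, the highest type was the same in both libraries. Of 54 neighbouring pairs in these orders, 43 in the vehicle and 44 in the OLE library had overlapping intervals.

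**Figure D1:**
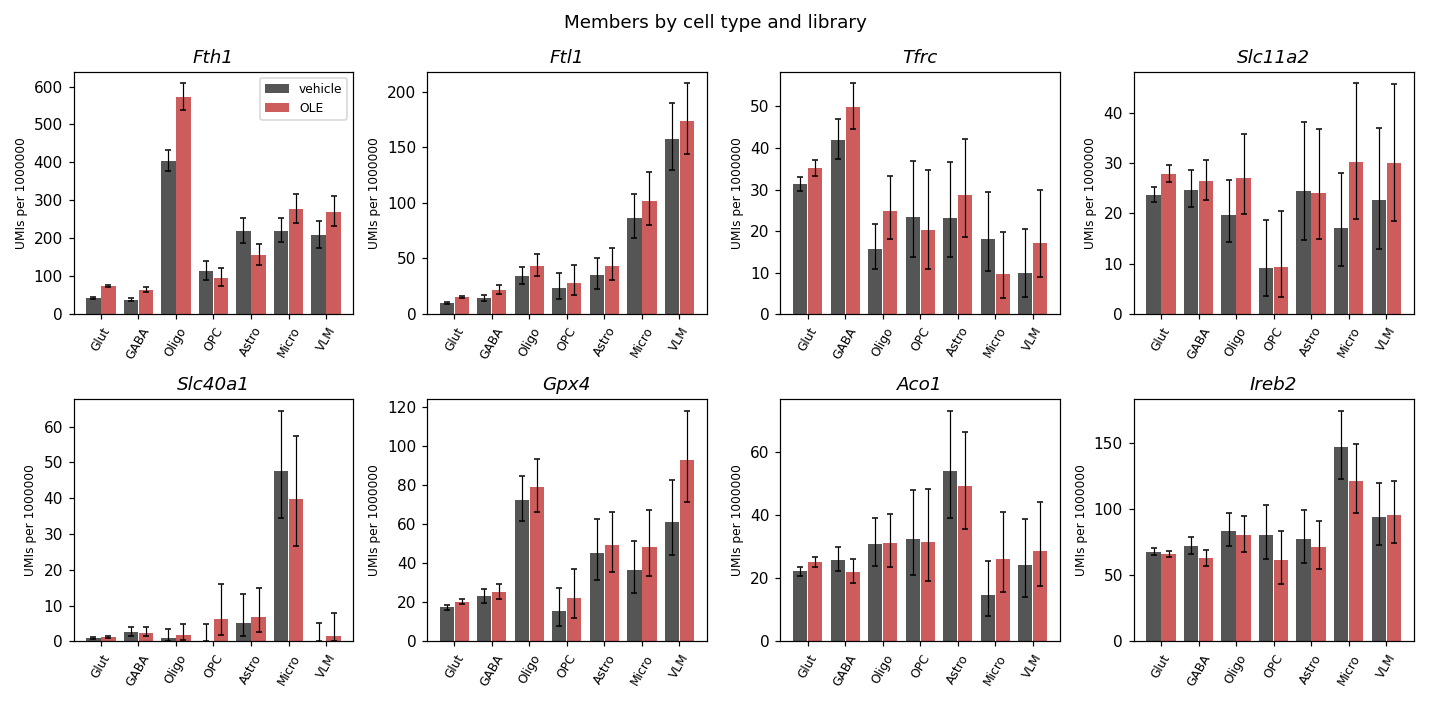
Bars give the level of 8 of the genes in UMIs per 1000000 (vertical axes, linear, starting at 0) in each of the 7 named cell types (horizontal axes; VLM is vascular leptomeningeal), dark gray for the vehicle and red for the OLE library, with exact Poisson 95% intervals for counting error. Fth1 peaks in oligodendrocytes at 404 and 572, Ftl1 in vascular leptomeningeal nuclei at 158 and 174, Tfrc in GABAergic nuclei at 41.9 and 49.8, and Slc40a1 in microglia at 47.7 and 39.9.

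Levels of the genes ran together or apart over 14 points, the 7 named types of each library, which share libraries and differ in depth. Pearson's r of log2(UMIs per 1000000 + 1) was 0.85 between Fth1 and Gpx4 and 0.70 between Fth1 and Ftl1. Over these points the receptor ran the other way, with r of -0.67 between Tfrc and Fth1 and -0.79 between Tfrc and Ftl1. Groups outside these points had Tfrc above every named type and Fth1 above both neuron classes. Tfrc stood at 84.9 and 96.9 in the mitochondria-rich cluster, with Fth1 at 2110 and 2174. For the low-UMI cluster these were 79.7 and 68.5, with Fth1 at 255 and 351. The endothelial-like cluster of 53 nuclei had Tfrc at 289 and 271 and Fth1 at 687 and 1289. Among 12096 genes with at least 500 UMIs the patterns most like that of Fth1 were those of Neat1 (r = 0.94), Rhob (0.94) and 1110059E24Rik (0.94). The nearest to Ftl1 were Rplp1 (0.99), Gm10073 (0.99) and Rpsa (0.98), of which Rplp1 and Rpsa encode ribosomal proteins. Map3k12 (0.94), Pde9a (0.90) and Gm35256 (0.89) were nearest to Tfrc. Hps4 (0.96), Exosc5 (0.91) and Bank1 (0.91) were nearest to Slc40a1. Tmem205 (0.96), Reep5 (0.95) and Tsc22d3 (0.94) were nearest to Gpx4.

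The iron-responsive element is the hairpin that the proteins of Aco1 and Ireb2 bind, and it is shown because it is the sequence several of these genes share. The letters searched on the transcript strand were a bulged C, 5 bases of any kind, CAGTG, 1 base of any kind and 5 more, with all 5 bases before the loop pairing with the 5 after it, G with T counted as a pair. Among annotated genes, 31 of 21200 (0.146%) held such an element in a 5′ untranslated region (UTR) and 144 of 21193 (0.679%) in a 3′ UTR. Fth1, Ftl1 and Slc40a1 held 1 each in the 5′ UTR, in exon 1, or in exon 2 of another transcript of Fth1, and Tfrc held 4 in the 3′ UTR in exon 19. None was found by these letters in the UTRs of the other members. Capitals mark the bulged C and the letters CAGTG of the loop, and the sequences are of GRCm38.
Fth1 5′ UTR, chr19:9982731-9982760, plus strand: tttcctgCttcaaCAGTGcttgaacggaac
Ftl1 5′ UTR, chr7:45459779-45459808, minus strand: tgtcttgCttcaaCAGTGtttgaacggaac
Slc40a1 5′ UTR, chr1:45925465-45925494, minus strand: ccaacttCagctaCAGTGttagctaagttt
Tfrc 3′ UTR, chr16:32631218-32631247, plus strand: taattatCggaagCAGTGccttccataatt
Tfrc 3′ UTR, chr16:32631597-32631626, plus strand: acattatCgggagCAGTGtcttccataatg
Tfrc 3′ UTR, chr16:32631662-32631691, plus strand: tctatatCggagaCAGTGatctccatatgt
Tfrc 3′ UTR, chr16:32631709-32631738, plus strand: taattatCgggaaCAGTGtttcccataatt
A match describes the letters and says nothing of binding in these nuclei.

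The comparison of the libraries asks how the genes stood after OLE. Both ferritin chains were higher in the OLE library in neurons. Fth1 stood in glutamatergic nuclei at 42.5 UMIs per 1000000 in the vehicle and 73.0 in the OLE library, 1.72-fold higher (1.62 to 1.82). GABAergic nuclei had 37.7 and 64.7, also 1.72-fold (1.47 to 2.01). Ftl1 stood in glutamatergic nuclei at 10.1 and 15.2, a log2 ratio of 0.59 (0.41 to 0.77). In GABAergic nuclei it stood at 14.2 and 21.9, a ratio of 1.54 (1.18 to 2.01). The remaining pair past 1.5-fold was Gpx4 in vascular leptomeningeal nuclei, at 61.2 and 92.6, a ratio of 1.51 (1.01 to 2.28) that rests on 43 and 65 UMIs.

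The log2 ratio of that pair of Gpx4 was 0.14 without mitochondria-rich barcodes and -0.21 after thinning to 1000 UMIs, where only 6 and 5 UMIs were counted. In the same nuclei 9.33% of 3023 genes were at least 1.5-fold higher and 6.81% lower. Markers of other types were also higher in them. The 12 GABAergic markers, all detected and Erbb4 the most abundant, summed to 375 and 1076 UMIs per 1000000, a log2 ratio of 1.52 (1.31 to 1.73). The 10 OPC markers, all detected and Pdgfra the most abundant, summed to 316 and 549, a log2 ratio of 0.80 (0.55 to 1.04). Of the 8 mural markers 5 were detected, Vtn the most abundant and Kcnj8, Acta2 and Higd1b at 0, with sums of 210 and 363 and a log2 ratio of 0.79 (0.49 to 1.09). The 11 markers of disease-associated microglia (DAM) were higher too, here per 1000000 non-mitochondrial UMIs. They summed to 1025 and 3025 in barcodes below 5% mitochondrial UMIs and to 2330 and 2664 in the rest. The part of these markers in the Gpx4 ratio was not tested.

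Of 70 pairs of a gene and a named type, 30 had at least 100 UMIs over both libraries, from 7 of the genes. Among them 5 were at least 1.5-fold higher in the OLE library, beside 4.15% of 41855 such pairs over all genes, and 0 were at least 1.5-fold lower, beside 1.14%. The log2 ratio was above 0 in 21 of the 30 and its median over the 41855 pairs was 0.045. In glutamatergic nuclei alone 2 of 7 genes were past the threshold, beside 3.84% of 14025 genes. The 5 became 3, beside 3.32% of all pairs, when the median of all genes was subtracted. That took Ftl1 in both neuron classes below the threshold, at log2 ratios of 0.52 and 0.54. After thinning to 1000 UMIs only 7 pairs had enough UMIs. The 2 past the threshold, beside 2.31% of all pairs, were Fth1 in glutamatergic nuclei and Fth1 in microglia. Because only well-counted pairs entered, the count does not speak for all 10 genes.

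For Fth1, glia were less uniform than neurons, a difference that was not tested. Fth1 in oligodendrocytes stood at 404 and 572, a ratio of 1.42 (1.29 to 1.55) below the threshold. In astrocytes Fth1 lay the other way, at 219 in the vehicle and 156 in the OLE library, a log2 ratio of -0.49 (-0.83 to -0.16). That astrocyte value depended on which barcodes entered, since with no barcode removed as a doublet it was 0.56. In the same astrocytes the 12 oligodendrocyte markers, all detected, summed to 404 and 281, a log2 ratio of -0.52 (-0.77 to -0.27). The 8 vascular leptomeningeal markers, 7 of them detected with Ranbp3l the most abundant and Lum at 0, summed to 278 and 189, a log2 ratio of -0.56 (-0.86 to -0.26). Their part in the astrocyte value was not tested. In OPC Fth1 had a log2 ratio of -0.24 (-0.74 to 0.25) on 87 and 61 UMIs. Microglial Fth1 stood at 219 and 277, a log2 ratio of 0.34 (0.04 to 0.63). Ftl1 lay above 0 in all 5 types where it had enough UMIs. Outside neurons its log2 ratios were 0.35 (-0.12 to 0.83) in oligodendrocytes and 0.24 (-0.24 to 0.72) in microglia. In vascular leptomeningeal nuclei the Ftl1 ratio was 0.14 (-0.24 to 0.52).

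Among the 30 pairs, the other members stayed below the threshold outside the pair of Gpx4 already given. Gpx4 had log2 ratios of 0.22 (0.08 to 0.37) in glutamatergic, 0.13 in GABAergic and 0.12 in oligodendrocyte nuclei. Tfrc had log2 ratios of 0.17 (0.06 to 0.28) in glutamatergic and 0.25 (0.02 to 0.48) in GABAergic nuclei, but -0.22 (-0.39 to -0.05) in the low-UMI cluster. Slc11a2 had 0.23 (0.11 to 0.36) in glutamatergic nuclei. Ireb2 was the member whose values lay mostly below 0, with 1 of 7 types above and a range from -0.40 in OPC to 0.02 in vascular leptomeningeal nuclei. Aco1 ranged from -0.22 to 0.18 over 3 types. Slc40a1 and Hmox1 had too few UMIs in every named type for a call, and microglial Slc40a1, at 47.7 and 39.9, had a ratio of 0.836 (0.502 to 1.37).

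**Figure D2:**
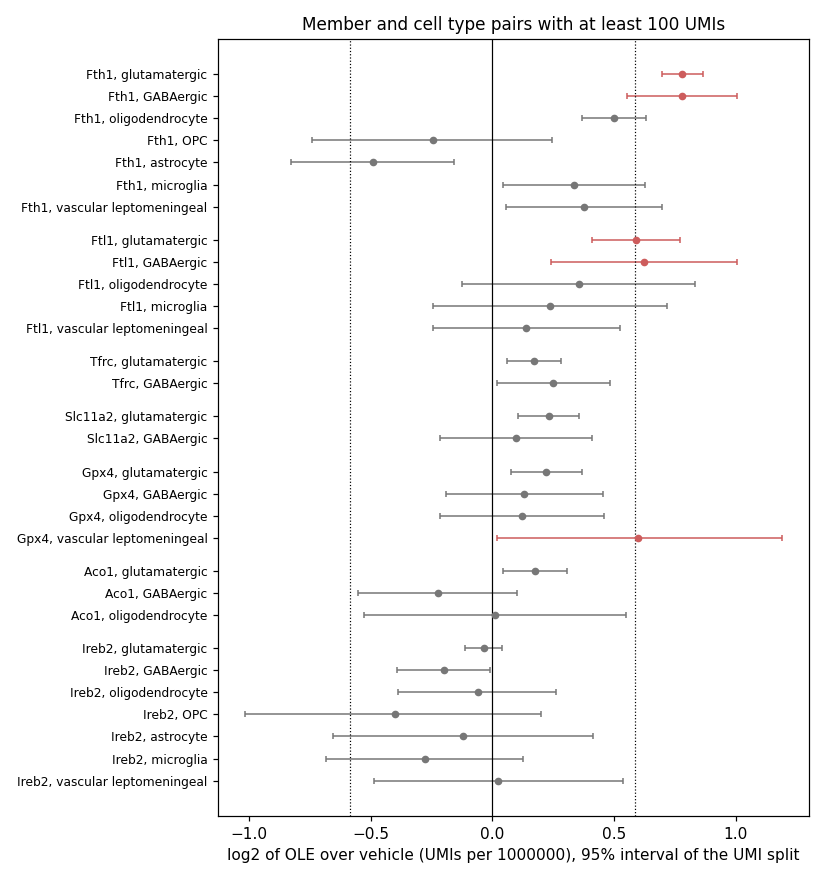
Points give log2 of the OLE over the vehicle level (horizontal axis) for the 30 pairs of a gene and a named cell type with at least 100 UMIs (vertical axis), and bars give the 95% interval of the UMI split. Dotted lines mark 1.5-fold, and the 5 red points past it are Fth1 and Ftl1 in both neuron classes, at 0.78, 0.78, 0.59 and 0.62, and Gpx4 in vascular leptomeningeal nuclei at 0.60.

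Ribosomal protein messengers were also higher in the OLE library. Their 83 genes, whose messengers are short, abundant and cytoplasmic, summed in glutamatergic nuclei to 776 UMIs per 1000000 in the vehicle and 1105 in the OLE library. That is a log2 ratio of 0.51 (0.49 to 0.53), with 25 of 79 genes past 1.5-fold higher and 0 lower, Rpl6 the most abundant and Rpl13 at 0. In GABAergic nuclei the sum had a log2 ratio of 0.49 (0.45 to 0.54) and in vascular leptomeningeal nuclei 0.98 (0.92 to 1.05), where 33 of 35 genes were past 1.5-fold. Mitochondrial transcripts did not move that way, with a log2 ratio of -0.07 (-0.08 to -0.06) in glutamatergic nuclei. The 7 nuclear-retained RNAs, Malat1 the most abundant, had 0.14 there. The 12 oligodendrocyte markers had -0.03 (-0.08 to 0.02) in glutamatergic nuclei, at 159 and 156 UMIs per 1000000, and in GABAergic nuclei 0.23 (0.09 to 0.36), at 127 and 148. Other markers moved with ferritin in glutamatergic nuclei. The 12 GABAergic markers, all detected and Erbb4 the most abundant, summed there to 204 and 309, a log2 ratio of 0.60 (0.56 to 0.64), with 5 of 12 past 1.5-fold higher. The 11 DAM markers (of disease-associated microglia), all detected and Ctsb the most abundant, summed to 102 and 139, a log2 ratio of 0.45 (0.39 to 0.50). In the low-UMI cluster Fth1 stood at 255 and 351, a ratio of 1.37 (1.30 to 1.46), and the ribosomal sum had a log2 ratio of 0.32 there. The part of ribosomal messengers, of markers of other types, of cytoplasmic RNA in the droplets or of the pools of mice in the ferritin ratios was not tested, and with 1 library per group the treatment and the library cannot be told apart.

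Beyond the 10, 4 lists held 76 further genes of iron transport, of iron and heme handling inside the cell, of defence against ferroptosis and of its promotion. Of these, 58 had at least 1 type with 100 UMIs, giving 188 pairs. Among the pairs 13 were at least 1.5-fold higher in the OLE library, beside 4.15% of all pairs, and 0 lower, beside 1.14%. Of the 188, 132 lay above 0, with a median log2 ratio of 0.13 beside 0.045 over all genes and 59.0% of all pairs above 0.

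Iron transport had 6 of its 30 pairs past 1.5-fold. Slc22a17, a receptor for the siderophore-binding lipocalin, stood in GABAergic nuclei at 119 and 186 UMIs per 1000000, in OPC at 223 and 355, and in astrocytes at 88.7 and 151. Of the ferroxidases, Heph passed in glutamatergic nuclei, at 11.6 and 17.7, and Cp in GABAergic nuclei, at 7.25 and 11.2, while in the other neuron class Heph was 1.29-fold and Cp 1.46-fold higher. The difference between the classes was not tested. Steap3, a ferrireductase of endosomes, stood in glutamatergic nuclei at 1.03 and 1.72. Of the 59 pairs of intracellular handling, only Cisd1 in GABAergic nuclei passed, at 12.2 and 23.2, and it encodes an iron-sulfur protein of the outer mitochondrial membrane.

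The defence list had 4 of 45 pairs past 1.5-fold, all of them Slc3a2, the heavy chain that partners the cystine importer and other amino acid transporters. It stood at 90.9 in the vehicle and 173 in the OLE library in microglia, at 74.6 and 141 in astrocytes, at 40.8 and 62.0 in oligodendrocytes and at 86.8 and 137 in vascular leptomeningeal nuclei. The promotion list had 2 of 54, both in astrocytes. They were Lpcat3, which places polyunsaturated fatty acids into phospholipids, at 113 and 173, and Por, which feeds electrons to cytochrome P450 enzymes, at 75.8 and 117. The shares of intracellular handling and promotion lay below the 4.15% of all pairs, and nothing particular to any list is read from these counts.

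Barcodes rich in mitochondrial RNA carried far more ferritin than others. Here 279 vehicle and 291 OLE barcodes had at least 5% mitochondrial UMIs, and levels were taken per 1000000 non-mitochondrial UMIs. Fth1 stood at 2065 (1963 to 2171) in the rich and 89.3 (87.0 to 91.6) in the other vehicle barcodes, 23.1-fold higher (21.8 to 24.5). In the OLE library it stood at 1515 and 147, 10.3-fold higher (9.75 to 10.9). Ftl1 was 27.3-fold higher (24.3 to 30.5) in the vehicle library, at 550 against 20.2, and 11.8-fold higher (10.5 to 13.3) in the OLE library, at 347 against 29.3.

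Of the other members, some were higher in the rich barcodes and some were not. Gpx4 was 6.75-fold higher (5.56 to 8.12) in the rich vehicle barcodes, at 163 against 24.2, and 6.43-fold higher (5.46 to 7.53) in the OLE library, at 189 against 29.4. Slc40a1, on 13 and 20 UMIs in the rich barcodes, was 7.93-fold (4.12 to 14.0) and 8.99-fold (5.35 to 14.4) higher. Ireb2 was level, at 64.7 against 72.2 in the vehicle and 68.2 against 70.4 in the OLE library. In vehicle barcodes with at least 10% mitochondrial UMIs it stood at 48.1 (28.5 to 76.1), just low enough to count as lower at that limit. Aco1 had ratios of 1.07 (0.643 to 1.68) and 1.44 (0.984 to 2.05), and Slc11a2 of 0.822 (0.469 to 1.34) and 0.969 (0.637 to 1.42). Hmox1 had 2 and 4 UMIs in the rich barcodes. In the vehicle library 5 of 8 genes with 100 UMIs were at least 1.5-fold higher, beside 38.7% of 14272 genes, and 0 were lower, beside 18.6%. In the OLE library 4 of 8 were higher, beside 36.6% of 14466 genes, and 0 lower, beside 19.7%. The gene that differed between these counts was Tfrc, with ratios of 1.63 (1.19 to 2.19) and 1.43 (1.08 to 1.88). At a limit of 10% mitochondrial UMIs its log2 ratio was -1.22 in the vehicle and 0.36 in the OLE library. The counts at that limit were 3 higher and 2 lower of 8 in the vehicle library, beside 37.0% and 23.9% of all genes. In the OLE library they were 5 and 0, beside 35.9% and 29.8%. At a limit of 2% they were 4 and 0 in both libraries. All genes gave 32.1% and 7.67% there in the vehicle and 32.8% and 10.5% in the OLE library. More than 1 in 3 of all genes passed the threshold upward, so ranks are given too. Ftl1 ranked 109 of 14272 in the vehicle and 315 of 14466 in the OLE library, and Fth1 ranked 146 and 382.

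The rich barcodes were not a sample of all types. The mitochondria-rich cluster held 74.9% of them in the vehicle and 75.6% in the OLE library. The 10 endothelial markers were all detected in them, Flt1 the most abundant, and summed to 1639 against 33.1 in the vehicle and 1620 against 46.1 in the OLE library. Markers of several other types were higher in the rich barcodes too, and the sums of 2 types were lower. The 8 vascular leptomeningeal markers, all detected and Bnc2 the most abundant, summed to 2049 against 81.0 in the vehicle and 2031 against 80.0 after OLE. The 8 mural markers, Rgs5 the most abundant and Acta2 at 0 in the rich OLE barcodes, summed to 624 against 21.7 and 506 against 39.2. The 11 DAM markers, all detected and Apoe the most abundant, were 8.81-fold and 7.11-fold higher, the 12 oligodendrocyte markers 4.22-fold and 3.52-fold, the 12 astrocyte markers 3.42-fold and 2.86-fold, and the 12 microglial markers 4.31-fold and 3.24-fold. The 12 GABAergic markers, all detected and Erbb4 the most abundant, stood at 0.517 and 0.679 of the other barcodes, and the 10 OPC markers, with Gpr17 at 0 in the rich OLE barcodes, at 0.812 and 0.607. Members of both lists went both ways past 1.5-fold. Of the OPC markers 6 were higher and 3 lower in the vehicle and 5 and 3 after OLE, with median log2 ratios of 1.16 and 0.49. Of the GABAergic markers 4 were higher and 5 lower in the vehicle and 3 and 5 after OLE. The 5 erythroid markers, all detected and Hbb-bs the most abundant, differed between the libraries, at 43.1 against 57.7 in the vehicle and 961 against 33.3 after OLE. So did the 7 choroid plexus markers, 4 of them detected, at 32.3 against 30.3 in the vehicle and 55.9 against 6.75 after OLE. The most abundant of the endothelial markers in the mitochondria-rich cluster were Flt1, Cldn5, Slco1a4, Adgrl4 and Ly6c1. Ribosomal protein messengers were 15.5-fold (15.2 to 15.8) and 9.30-fold (9.14 to 9.48) higher in the rich barcodes, and nuclear-retained RNAs stood at 0.801 and 0.919 of the other barcodes. The part of cell type and of cytoplasmic RNA in the ferritin levels was not tested over all barcodes, but the comparison could be repeated within types that held at least 20 rich barcodes of each library.

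Within oligodendrocytes Fth1 was again higher in the rich barcodes, at 1289 against 369 in the vehicle (3.49-fold, 2.85 to 4.23) and 1381 against 537 in the OLE library (2.57-fold, 2.11 to 3.11). Ribosomal messengers were 1.31-fold and 1.54-fold higher there. The 11 DAM markers, 8 detected in the vehicle and 7 in the OLE library with Apoe the most abundant, had log2 ratios of 0.74 (0.43 to 1.04) and 0.72 (0.46 to 0.96). In the vehicle library glutamatergic markers were 1.63-fold (1.26 to 2.09) and OPC markers 1.35-fold (1.07 to 1.68) higher. After OLE these ratios were 1.05 (0.750 to 1.43) and 1.21 (0.948 to 1.52). Vascular leptomeningeal markers, 4 of 8 detected and Dcn the most abundant, were 3.74-fold (1.83 to 7.02) higher in the OLE library. Ftl1 was not higher in these rich oligodendrocytes, with ratios of 0.615 and 0.771 on only 2 and 3 UMIs. Within vascular leptomeningeal nuclei Ftl1 was 5.80-fold (3.79 to 9.09) and 5.64-fold (3.55 to 9.30) higher, beside 5.43-fold and 6.39-fold for ribosomal messengers, with the single Ftl1-rich nucleus of each library included. Fth1 was 3.22-fold and 5.04-fold higher in the same comparison. The DAM markers, 6 of 11 detected and Apoe the most abundant, were 2.27-fold higher in the vehicle library. Among OLE barcodes, GABAergic markers (Erbb4 the most abundant) stood at 0.115 of the other barcodes, mural markers (Pdgfrb) at 0.266 and OPC markers (Pdgfra) at 0.306, and endothelial markers (Abcb1a) were 1.75-fold higher. The part of these markers in the ferritin ratios was not tested. Within the mitochondria-rich cluster Fth1 was 2.29-fold (2.08 to 2.53) and 1.41-fold (1.29 to 1.54) higher. The log2 ratios of ribosomal messengers were 0.97 and 0.33 there. The 8 mural markers, Rgs5 the most abundant and Acta2 at 0 in its rich OLE barcodes, had ratios of 2.49 and 1.11 of rich over other barcodes, and the 12 astrocyte markers, Slc1a2 the most abundant, of 2.13 and 1.47. Vascular leptomeningeal markers had 2.20 and 2.91, and DAM markers, Apoe the most abundant, 1.75 and 1.63. The 12 oligodendrocyte markers, all detected and Mbp the most abundant, had 1.53 (1.39 to 1.70) and 1.36 (1.23 to 1.51). Endothelial markers, Flt1 the most abundant, had 1.45 and 1.32. Choroid plexus markers, led by Ttr, stood at 22.2 in the rich against 3673 in the other barcodes of the vehicle library. Erythroid markers, led by Hbb-bs, stood at 46.8 in the rich against 135 in the other vehicle barcodes, and at 2317 against 1121 in the OLE library. Their part in the ratios was not tested. Ftl1 did not keep its direction in the cluster, with ratios of 1.41 (1.19 to 1.68) in the vehicle and 0.787 (0.658 to 0.940) in the OLE library. The log2 ratio of Gpx4 was 1.12 (0.58 to 1.68) in the vehicle and 0.38 (-0.02 to 0.78) in the OLE library. For Fth1, the level of the whole cluster between the libraries hardly differed, at 2110 and 2174 UMIs per 1000000. Gpx4 stood there at 147 (123 to 174) and 226 (196 to 258), 1.54-fold higher after OLE (1.23 to 1.93), on 133 and 212 UMIs.

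**Figure D3:**
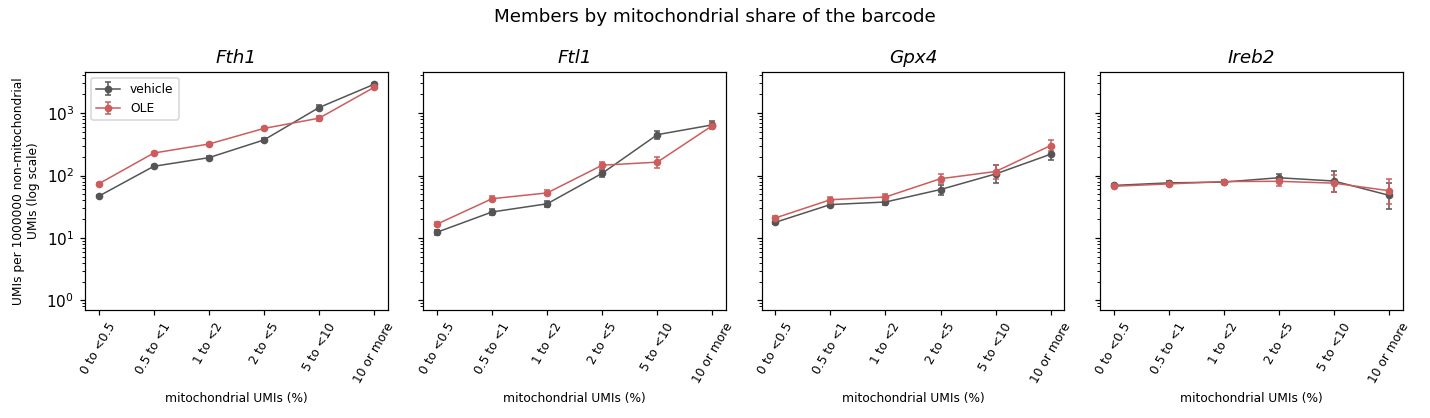
Points give the level of 4 genes in UMIs per 1000000 non-mitochondrial UMIs (vertical axis, log scale, shared) against the mitochondrial share of the barcode in percent, in 6 steps (horizontal axes), dark gray for the vehicle and red for the OLE library, with Poisson 95% intervals. Fth1 climbs from 46.6 to 2892 in the vehicle and from 73.5 to 2580 in the OLE library, while Ireb2 stays between 48.1 and 92.1.

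Microglia split into a homeostatic-like subcluster (168 vehicle and 133 OLE nuclei) and a subcluster resembling disease-associated microglia (DAM-like, 157 and 121 nuclei), the state known from microglia around plaques. The microglia-like type also held 13 nuclei resembling perivascular macrophages, with Slc40a1 at 244 and 96.6 on 3 and 2 UMIs, and 17 unnamed nuclei led by genes such as Rnf112, Snhg11 and Miat. Ferroportin was on the homeostatic side. Slc40a1 stood at 79.1 UMIs per 1000000 in homeostatic-like and 9.79 in DAM-like nuclei of the vehicle library, a log2 ratio of -3.02 (-4.97 to -1.53) on 35 and 4 UMIs. In the OLE library it stood at 73.6 and 6.31, a log2 ratio of -3.54 (-6.67 to -1.53) on 24 and 2 UMIs.

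Ferritin light chain was on the other side. Ftl1 stood in DAM-like nuclei at 110 and in homeostatic-like nuclei at 63.3 in the vehicle library, a log2 ratio of 0.80 (0.09 to 1.53). In the OLE library these were 145 and 55.2, a log2 ratio of 1.39 (0.58 to 2.27). Ribosomal protein messengers were also higher in DAM-like nuclei, at 3541 (3361 to 3728) against 2996 (2837 to 3162) in the vehicle and 4870 (4630 to 5119) against 3757 (3550 to 3974) after OLE. Their part in the Ftl1 ratio was not tested. Fth1 did not part them, with ratios of 0.958 (0.707 to 1.30) and 1.08 (0.791 to 1.47). The importers rest on few counts, and Tfrc differed in direction between the libraries. Tfrc had 13 UMIs in DAM-like and 3 in homeostatic-like nuclei of the vehicle library but 2 and 4 in the OLE library. Slc11a2 had 9 and 6 UMIs in the vehicle nuclei, beside 14 and 3 after OLE. Its log2 ratios of DAM-like over homeostatic-like nuclei were 0.70 (-0.95 to 2.47) and 2.26 (0.42 to 4.70), and only the OLE interval lay above 0. Gpx4 had log2 ratios of 0.11 (-0.98 to 1.21) and 0.32 (-0.79 to 1.45). Ireb2 had ratios of 0.953 and 0.933, and Aco1 of 0.927 and 0.429 on 6 against 7 and 5 against 12 UMIs. Hmox1 had 1 UMI each in the homeostatic-like and DAM-like nuclei of the vehicle library and 2 each in those of the OLE library. The OLE nuclei resembling perivascular macrophages held 2 more. At resolution 0.5 the DAM-like subcluster was nearly unchanged, and its partner stayed unnamed, with 7 homeostatic markers raised but none among its top genes. The subclusters were drawn on genes other than the 10, and homeostatic and DAM-like nuclei differed little in depth, with medians of 2353 and 2464 UMIs.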

How the data were processed

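Per the labels, the authors aligned 10x 3′ v3 reads of nuclei to mm10 with Cell Ranger 3.0.1 and used Seurat 4.0.4, and they deposited whole-number UMI counts without normalization. The count tables hold 31053 genes, 6745 vehicle barcodes (70845739 UMIs) and 6173 OLE barcodes (69485537 UMIs). The members and lists were chosen with earlier results of these data known.

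Doublets were scored with Scrublet in scanpy 1.11.5. Its automatic threshold called 0.104% of vehicle and 0.227% of OLE barcodes, so the top 5% of scores were removed instead (331 and 289 barcodes). Counts were transformed with SCTransform (sctransform 0.4.2, Seurat 5.3.0, R 4.3.3) and clustered by the Louvain method on 3000 variable genes without the members, 30 principal components and 20 neighbours at resolution 0.4. The naming rule was set after the clusters had been seen. A marker was raised at 4 times the 10th percentile of clusters and in at least 10% of nuclei, and a name needed 3 raised markers. A cluster stayed unnamed with fewer, when it was shallow and its top 10 genes held no marker of the class, or when another class had at least 50% of its markers raised and the top 10 held fewer than 2 of the best class. Unnamed clusters were the low-UMI cluster (38.6% of vehicle and 34.4% of OLE barcodes), the mitochondria-rich cluster (5.86% and 7.56%) and others (2.37% and 2.11%). Microglia were clustered again at resolution 0.3, and their naming rule, too, came after a look at them.

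Within each type and library, UMIs were added up and scaled per 1000000. Sums have exact Poisson intervals, and ratios and shares have exact binomial (Clopper-Pearson) intervals, at 95%. A pair was called at 1.5-fold with at least 100 UMIs over both libraries. The genes named are the 10 members, list genes past 1.5-fold in a type where at most 5 genes of the list passed in that direction, the 3 genes most correlated with a member and the 5 most abundant markers of a list. Gene positions came from GENCODE on GRCm38, to which 30934 genes (99.6%) were matched. Python 3.11.15 was run with pandas 2.3.3, scipy 1.17.1, matplotlib 3.10.9 and numpy 2.4.6. The ratio and interval code was tested on simulated data. Alternatives changed doublet removal, clustering, scaling, depth, thresholds and the mitochondrial limit.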

Additional observations from a re-analysis of the deposited data

Results flagged for a closer look

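Fth1 moved in opposite directions between cell types. Its log2 ratio of OLE over vehicle was 0.78 in glutamatergic nuclei, 0.78 in GABAergic nuclei, 0.50 in oligodendrocytes, 0.34 in microglia and 0.37 in vascular leptomeningeal nuclei, with every interval above 0. In astrocytes it was -0.49, with an interval from -0.83 to -0.16. In OPC it was -0.24 (-0.74 to 0.25), but without the richest nucleus of each library the OPC levels were 87.6 and 85.9. The difference between the types was not tested, and the astrocyte value rests on 170 vehicle and 136 OLE UMIs. With no barcode removed as a doublet the astrocyte value was 0.56, with clustering on log-normalized counts -1.44, and thinned to 1000 UMIs -1.45, on 39 and 16 UMIs. The value with log-normalized counts rests on 1 vehicle nucleus with 161 of 331 UMIs, and it was -0.59 without the richest nucleus of each library. Oligodendrocyte markers in the same astrocytes had a log2 ratio of -0.52 (-0.77 to -0.27), and their part was not tested.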

How the results depend on the processing

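Over the single pairs of a gene and a type, 251 of 270 values under the alternatives lay within the main interval, 18 outside it, some of them with the other sign, and 1 pair past 1.5-fold turned sign. This was Gpx4 in vascular leptomeningeal nuclei, at -0.21 on 6 and 5 UMIs after thinning to 1000 UMIs, a depth that 165 vehicle and 282 OLE barcodes did not reach. Of the members in mitochondria-rich barcodes, 49 of 64 values lay within the main interval, 14 outside it and 1 turned sign. Of the counts and main values, 39 of 59 stayed and 20 moved. In the main result 5 of 30 pairs were higher in the OLE library, beside 4.15% of all pairs. For each alternative the share of all pairs follows in brackets. The 5 became 3 with log-normalized clustering (4.02%), with the median of all genes subtracted (3.32%) and with the mean of shares per nucleus (3.78%). They became 3 of 37 with no barcode removed (4.27%) and 3 of 18 with at least 300 UMIs (2.26%). They became 4 of 26 pairs without mitochondria-rich barcodes (3.74%) and 2 of 7 after thinning (2.31%). At the lower fold threshold 9 of 30 were higher (14.6%), at 2-fold 0 (0.509%) and at 30 UMIs 8 of 49 (8.66%). Leaving out the nucleus richest in the gene in each library, chosen after seeing the data, kept 5 higher and 0 lower, and together with log-normalized clustering gave 4 and 1. The 0 pairs lower became 1 with log-normalized clustering, with the mean of shares per nucleus and without mitochondria-rich barcodes, and 2 at the lower fold threshold. With a 10% mitochondrial limit, 3 of 8 members were higher and 2 lower in the vehicle library, beside 37.0% and 23.9% of all genes. The main result had 5 and 0 there, and at 10% Tfrc turned to a log2 ratio of -1.22. In the OLE library 4 and 0 became 5 and 0, beside 35.9% and 29.8%. At 2% the vehicle count was 4 and 0, beside 32.1% and 7.67%. Of the 188 list pairs 13 were higher and 0 lower. At 30 UMIs, a minimum that lets in more pairs, 35 were higher and 12 lower, beside 8.66% and 3.82% of all pairs. At the lower fold threshold 38 and 8 of the 188 were, beside 14.6% and 5.81%. At 2-fold 0 were higher, beside 0.509%. Thinning moved the share of higher calls among all calls from 78.5% to 66.2%, and the minimum of 30 UMIs to 69.4%. The highest type was kept for 13 to 16 of 18 gene and library pairs. Between microglial subclusters Slc40a1, Ftl1 and Fth1 stayed within their intervals at resolution 0.5, where the partner of the DAM-like subcluster was unnamed. Apart from the thresholds, which change what is counted, the cause was not tested. Leaving out replicates was not possible with 1 library per group. No paired analysis was possible because each group is 1 pooled library. Rare genes such as Hmox1 and Slc40a1 are limited by depth.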

Other observations

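The mitochondria-rich cluster, which had the highest ferritin levels, differed in make-up between the libraries. The 7 choroid plexus markers, all detected, summed there to 1721 UMIs per 1000000 in the vehicle and 25.6 in the OLE library, led by Ttr, the carrier of thyroid hormone, at 1686 and 16.0. The 5 erythroid markers, led by the hemoglobin gene Hbb-bs, summed to 83.8 in the vehicle and 1495 in the OLE library. In microglia the erythroid sum lay the other way, at 411 and 67.4. Their part in the ferritin levels was not tested.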
